A study of Mus musculus with 8 samples.

Results

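Oligo2 is a cluster of oligodendrocytes, the glial cells that make myelin in the central nervous system, which the authors obtained by grouping single-cell transcriptomes of mouse brain. Its members here were the cells of wild-type libraries that carry cluster number 2 in the deposited cell table. They were 1107 of the 5885 wild-type oligodendrocytes and of 12581 cells in all 8 libraries, in which the cluster held 2382 cells. These cells were compared across all genes with the 4363 cells of Oligo3 and the 409 cells of Oligo4 from the same libraries. The other 6 wild-type cells carried cluster number 1, all in 1 library, and were not compared.

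The study addressed how oligodendrocytes and myelin depend on microglia, using mice that lack the FIRE enhancer of the microglial growth factor receptor gene Csf1r (FireΔ/Δ) beside Fire+/+ controls. The 4 wild-type libraries came from 2 female Fire+/+ mice of mixed CBA and C57BL/6J background, mouse 1 aged 1 month and 18 days and mouse 4 aged 1 month and 16 days. Each mouse gave 1 library from the hippocampi and 1 from what was left of its left hemisphere, named cortex in the labels. The FireΔ/Δ libraries came from mouse 3 aged 1 month and 18 days and mouse 6 aged 1 month and 16 days. They were used only in the named alternatives with all 8 libraries and to count genes with the same direction in them. Each batch of the cell table held 1 tissue of 1 mouse of either genotype, so batch and tissue cannot be told apart within wild-type mice. Tissue had been dissociated with actinomycin D and trehalose, and live cells were sorted by scatter and a viability dye with no lineage marker, against myelin debris, red blood cells and doublets. The values therefore describe cells that survived dissociation, from 2 animals of 1 sex.

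Oligodendrocytes arise from progenitor cells, pass through a premyelinating and a myelin-forming stage, and persist as mature cells that maintain the sheaths around axons. Mature oligodendrocytes are not uniform, and genes such as Ptgds, Klk6, Apod and Opalin mark different groups of them in mouse brain and spinal cord. Myelin is a stack of membrane rich in cholesterol and galactolipids, so lipid synthesis is a main activity of the cells that build and renew it.

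The study's methods state larger totals of cells and genes than the files used here hold, so shares are of the deposited cells. Transcripts of 18833 genes were measured as unique molecular identifiers (UMIs), each of which stands for 1 captured RNA molecule. Levels are means over the cells of a cluster within a library of the deposited value, which is log2 of 1 plus the UMIs of the gene over the size factor of the cell. On this scale differences of weakly detected genes are understated. Values of the 4 libraries are given in the order hippocampus of mouse 1, cortex of mouse 1, hippocampus of mouse 4 and cortex of mouse 4. Differences are within a library and are given as mean ± SD over these libraries (n = 4, from 2 mice). Since the clusters were made from these same values, a difference between clusters is a description and has no test.

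Oligo2 counted 378, 314, 214 and 201 cells, with 3990251, 4272799, 2992884 and 2457037 UMIs in sum. Its share of the oligodendrocytes of a library was 15.9% (95% Clopper-Pearson interval 14.5 to 17.5), 23.4% (21.2 to 25.8), 20.4% (18.0 to 23.0) and 17.9% (15.7 to 20.3). The lowest and the highest share both came from mouse 1, and the tissues overlapped. The mean was 18.2% ± 3.19 in hippocampus and 20.6% ± 3.89 in cortex (SD, n = 2 each), so that hippocampus minus cortex came to -2.46 points (p = 0.667 in an exact permutation test, two-sided, which cannot go below 0.33 with 2 libraries a side). Without the cortex library of mouse 1 the difference was 0.286 points.

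Median UMIs per Oligo2 cell were 10202.5, 13700.5, 13976 and 12167. In every library Oligo2 cells held more UMIs than Oligo3 cells, whose medians were 9097.5, 12007, 12827 and 10605, and fewer than Oligo4 cells, with 12390, 16086.5, 14328 and 13970. Mitochondrial transcripts made up a median of 4.12, 4.75, 4.23 and 5.73% of UMIs in Oligo2, below Oligo3 (4.97, 5.76, 5.30 and 6.50%) in each library. Intervals and counts of UMIs cover counting error only. Of the cell barcodes, 3 were found in more than 1 wild-type library and 21 in more than 1 of the 8 libraries.

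Genes that mark oligodendrocytes were high throughout the cluster. Mog, which encodes a glycoprotein of the outer myelin surface, averaged 4.03, 3.98, 3.98 and 3.88 in Oligo2, against 3.93, 3.89, 3.86 and 3.84 in Oligo3 and 4.24, 4.33, 4.15 and 4.24 in Oligo4. Mag, the adhesion molecule of the myelin membrane next to the axon, averaged 4.86, 4.79, 4.53 and 4.49 in Oligo2 and had a UMI in 100% of its cells, as did Mog. Both genes stood close to Oligo3 (0.09 ± 0.03 for Mog and 0.10 ± 0.01 for Mag), while Mog was lower than in Oligo4 by a difference of -0.27 ± 0.09. Mbp, which encodes the basic protein that holds the cytoplasmic faces of myelin together, averaged 5.31, 5.47, 5.35 and 5.38 in Oligo2 and differed from Oligo3 by 0.11 ± 0.04.

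**Figure D1:**
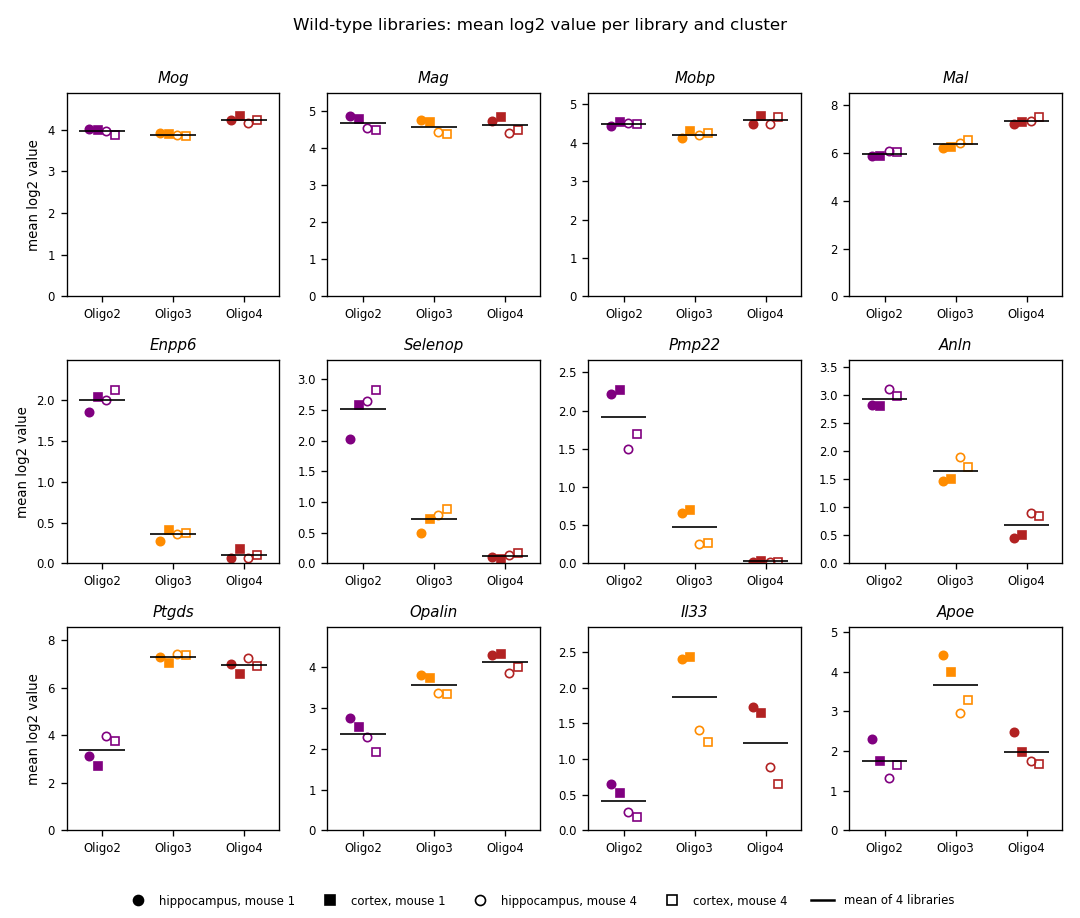
Mean log2 value of 12 genes in Oligo2, Oligo3 and Oligo4 (x axis) on a y axis that starts at 0, with 1 point for each of the 4 wild-type libraries and a line at their mean. Mog is higher in Oligo4 than in Oligo2 in every library, Enpp6, Selenop, Pmp22 and Anln are highest in Oligo2 in every library, and Ptgds, Opalin and Il33 are lowest there.

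A gene was called higher or lower in Oligo2 where its mean difference was at least 0.25 in size with 1 sign in all 4 libraries. Only genes detected in 5% of cells or more were tested, and a gene could meet this through 1 of the clusters compared. Against Oligo3, 147 of 9240 genes tested (1.59%) were higher in Oligo2 and 103 (1.11%) were lower, around a median difference of 0.00. At 0.5 or more, 36 were higher and 23 lower. With each cell thinned to 5000 UMIs, 142 of the 147 and 100 of the 103 were called again. Other parts of the depth difference were not tested.

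The gene furthest above Oligo3 on the deposited scale was Selenop, which encodes a secreted protein that carries selenium. It averaged 2.02, 2.59, 2.65 and 2.82 in Oligo2 and 0.50, 0.73, 0.78 and 0.89 in Oligo3. Every Oligo2 value lay above every Oligo3 value, with hippocampus of mouse 1 lowest in both clusters, and the difference was 1.79 ± 0.18. With 0.1 in place of 1 added to the mean normalised count the difference of Selenop was 2.34. On that scale it was below S100b (3.31), Klk6 (2.83), Enpp6 (2.76) and Pmp22 (2.42). Enpp6 (mouse GRCm38, chr8:46986887-47096762, plus strand), a choline phosphodiesterase used as a marker of newly formed oligodendrocytes, averaged 1.86, 2.05, 2.01 and 2.12 against 0.27, 0.41, 0.36 and 0.38. The spread between libraries was small beside the difference of 1.65 ± 0.07, and the mean normalised UMI count of Enpp6 was 8.12 times that of Oligo3. Pmp22 (chr11:63128982-63159547, plus strand), a membrane protein best known from peripheral myelin, averaged 2.21, 2.26, 1.50 and 1.69 in Oligo2 and 0.66, 0.70, 0.26 and 0.27 in Oligo3. Pmp22 was higher in mouse 1 than in mouse 4 in both clusters, and its difference between clusters was 1.44 ± 0.15.

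Anln encodes anillin, which binds actin and the septin filaments that line mature myelin. Its level was 2.81, 2.81, 3.10 and 2.97 in Oligo2 and 1.46, 1.50, 1.89 and 1.72 in Oligo3, with no overlap. Apod, a lipid-binding secreted lipocalin, averaged 5.35, 5.28, 4.93 and 5.05 in Oligo2 against 4.39, 4.31, 3.85 and 3.82 in Oligo3, a difference of 1.06 ± 0.13. Serpinb1a, an inhibitor of serine proteases, was also higher in each library, with 2.78, 2.58, 2.16 and 2.11 in Oligo2 beside 1.74, 1.58, 1.34 and 1.15 in Oligo3. S100b, a calcium-binding protein, averaged 1.00, 1.27, 0.73 and 1.33 in Oligo2 and at most 0.17 in an Oligo3 library. Its difference of 0.94 ± 0.25 had the widest spread of the genes named in this paragraph, with the hippocampus of mouse 4 lowest. Further genes among the 15 highest were the transporter gene Slco3a1 (1.11 ± 0.06), the tubulin-binding Tppp3 (1.01 ± 0.13), the lipid droplet coat gene Plin3 (0.99 ± 0.07) and Hapln2 (0.90 ± 0.06), a link protein of the matrix at nodes of Ranvier.

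The gene furthest below Oligo3 was Ptgds (chr2:25466709-25470046, minus strand), which encodes the enzyme that makes prostaglandin D from its precursor. It averaged 3.11, 2.70, 3.97 and 3.74 in Oligo2 and 7.30, 7.05, 7.39 and 7.37 in Oligo3. The difference was -3.90 ± 0.44, and the mean normalised UMI count of Ptgds in Oligo3 was 10.1 times that in Oligo2. Apoe, a carrier of cholesterol and other lipids, averaged 2.29, 1.75, 1.33 and 1.65 in Oligo2 and 4.42, 3.99, 2.96 and 3.29 in Oligo3, a difference of -1.91 ± 0.32. In both clusters Apoe was highest in the hippocampus of mouse 1 and lowest in the hippocampus of mouse 4.

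Il33, a cytokine held in the nucleus, averaged 0.65, 0.53, 0.26 and 0.19 in Oligo2 and 2.40, 2.43, 1.41 and 1.24 in Oligo3. Both clusters had more Il33 in mouse 1, and the difference was -1.46 ± 0.42. Opalin (chr19:41061710-41077113, minus strand), a membrane glycoprotein of oligodendrocytes, averaged 2.76, 2.53, 2.28 and 1.93 in Oligo2 against 3.81, 3.73, 3.37 and 3.34 in Oligo3. The clusters did not overlap and differed by -1.18 ± 0.16. Lower in Oligo2 as well were the tetraspanin Cd9 (-0.85 ± 0.17), the creatine kinase gene Ckb (-0.73 ± 0.04), the metal-binding Mt1 (-0.73 ± 0.13), Jph4 (-0.73 ± 0.12), which joins plasma membrane to endoplasmic reticulum, and Qdpr (-0.66 ± 0.04), an enzyme that recycles a pterin cofactor.

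Against Oligo4, 298 of 9384 genes tested (3.18%) were higher in Oligo2 and 241 (2.57%) were lower, with a median of 0.00. At 0.5 or more the counts were 87 and 76. Thinning to 5000 UMIs kept 289 of the 298 and 206 of the 241, and Oligo4 had 38 cells in the cortex of mouse 1, its smallest set. Gng11, a subunit of heterotrimeric G proteins, was at 3.62, 3.45, 3.25 and 3.23 in Oligo2 and 0.89, 1.18, 0.94 and 0.84 in Oligo4. This gap of 2.42 ± 0.21 was seen in every library, and Gng11 also exceeded Oligo3 by 0.81 ± 0.05. Selenop stood at 0.10, 0.08, 0.13 and 0.17 in Oligo4, a difference from Oligo2 of 2.40 ± 0.33. Anln differed by 2.24 ± 0.10, Serpinb1a by 2.07 ± 0.22, Enpp6 by 1.90 ± 0.10 and Pmp22 by 1.89 ± 0.38.

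Glul encodes glutamine synthetase, which joins glutamate and ammonia. It averaged 3.74, 3.79, 3.26 and 3.38 in Oligo2 and 1.71, 1.85, 1.62 and 1.60 in Oligo4, a difference of 1.85 ± 0.17. Against Oligo3, whose values were 3.77, 4.05, 3.32 and 3.37, the difference of Glul was -0.08 ± 0.12. The transcription factor gene Etv1 (1.70 ± 0.23), Sez6l2 (1.67 ± 0.23) and the cation channel gene Hcn2 (1.60 ± 0.12) were among the 15 highest against Oligo4.

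Of the genes lower than in Oligo4, Ptgds was again the furthest, at 7.01, 6.58, 7.23 and 6.90 in Oligo4 and a difference of -3.55 ± 0.39. Opalin followed, with 4.31, 4.33, 3.87 and 4.00 in Oligo4 and a difference of -1.75 ± 0.24. Plekha1, which encodes a phosphoinositide-binding adaptor, averaged 0.73, 0.78, 0.80 and 0.63 in Oligo2 and 2.58, 2.21, 2.26 and 2.27 in Oligo4, a difference of -1.60 ± 0.19. Mal, a proteolipid of compact myelin, averaged 5.87, 5.86, 6.10 and 6.02 in Oligo2, 6.20, 6.24, 6.43 and 6.56 in Oligo3 and 7.23, 7.29, 7.33 and 7.51 in Oligo4. Oligo2 was thus lowest for Mal in each library, by -0.39 ± 0.10 from Oligo3 and -1.37 ± 0.11 from Oligo4.

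Of 9169 genes tested in both comparisons, 126 (1.37%) were higher in Oligo2 than in both other clusters and 79 (0.862%) were lower than in both. The comparisons share the Oligo2 cells, so this count is a description. The 2 genes past the limit in opposite directions, chosen after their values were seen, were Pex5l (-0.49 from Oligo3 and 0.68 from Oligo4) and the amino acid transporter gene Slc38a2 (-0.38 and 0.33).

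**Figure D2:**
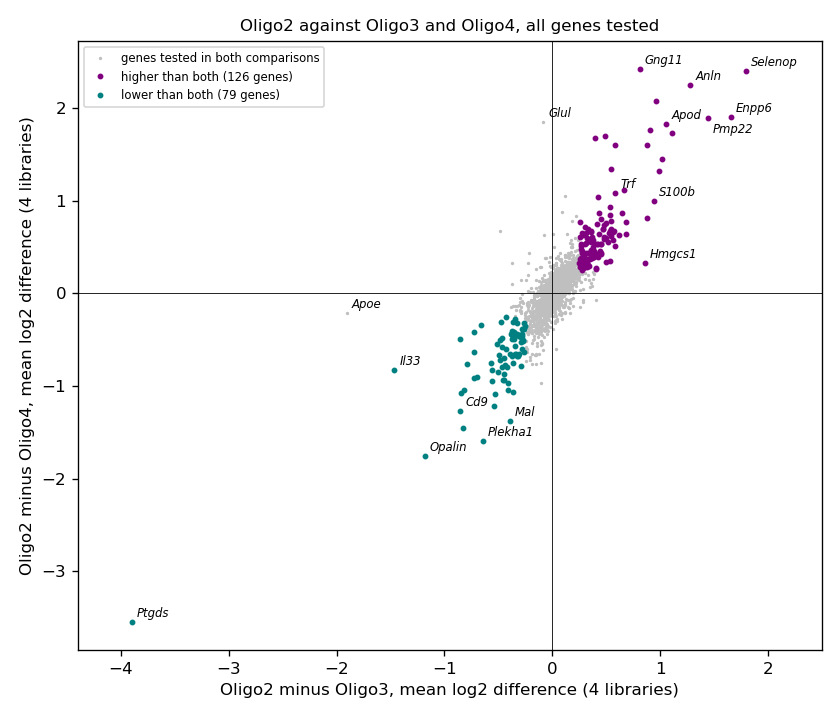
Mean log2 difference over 4 wild-type libraries of each of 9169 genes, Oligo2 minus Oligo3 on the x axis and Oligo2 minus Oligo4 on the y axis, with the 126 genes higher than in both clusters in purple and the 79 lower than in both in teal. Ptgds lies furthest to the lower left, Selenop to the upper right, Apoe is low against Oligo3 only and Glul is high against Oligo4 only.

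Genes of the stages of the lineage were divided. Counts of list members stand against 1.59% of all genes higher and 1.11% lower than in Oligo3, and 3.18% higher and 2.57% lower than in Oligo4. Of 7 premyelinating genes tested, from a list of 13, Enpp6 alone was higher than in Oligo3 and Oligo4 and none was lower. Gpr17, the receptor that defines premyelinating cells, had a UMI in 4.35% of Oligo2 cells, 5.94% of Oligo3 cells and 13.1% of Oligo4 cells (means of the 4 library percentages, as for all such shares). Of 6 myelin-forming genes tested, 3 were lower than in Oligo3 (Opalin, Serinc5 and Tspan2) and 4 lower than in Oligo4 (Ctps in addition), and none was higher. The medians of this list were -0.30 and -0.45, against 0.00 over all genes.

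Genes of the late mature list moved both ways. Against Oligo3, 7 of 14 tested were higher (Apod, Klk6, Anxa5, Hopx, Trf, S100b and Pmp22) and 4 lower (Ptgds, Il33, Jph4 and Qdpr), with a list median of 0.21, beside 1.59% and 1.11% of all genes. At a limit of 0.5, 4 were higher, beside 36 of all 9240 genes. Hippocampus libraries alone gave 6, beside 146 of all genes, with Klk6 at 0.23, under the limit. Graph cluster 2 alone, a part of Oligo2 chosen after seeing the data, gave 5, beside 100 of all genes. There Klk6 was at 0.11 and Hopx at 0.13. Against Oligo4 the counts were 8, with Car2 in addition, and the same 4 lower, with a median of 0.37. Klk6, Hopx and Pmp22 had a UMI in under 5% of Oligo4 cells as a mean of the libraries. They met the filter through Oligo2 alone, which favours calls as higher. Hippocampus libraries alone gave 7 higher, beside 302 of all genes, and graph cluster 2 alone gave 6, beside 252. Trf, the iron carrier transferrin, averaged 6.01, 5.97, 5.45 and 5.48 in Oligo2 and 5.42, 5.39, 4.92 and 4.85 in Oligo3. The clusters did not overlap in Trf, and the difference was 0.58 ± 0.04. Klk6, a serine protease, averaged 0.26, 0.67, 0.21 and 0.47 in Oligo2 and at most 0.03 in an Oligo3 library. A UMI of Klk6 was seen in 24.1% of Oligo2 cells, 1.66% of Oligo3 cells and 0.715% of Oligo4 cells. Klk6 thus met the filter of 5% through Oligo2 alone in both comparisons.

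Core myelin genes differed little from Oligo3 and more from Oligo4. Of 8 genes, 2 were higher than in Oligo3, among them Mobp (0.28 ± 0.04), and Mal was lower. None was higher than in Oligo4, and 4 were lower, namely Mog, Cnp (-0.44 ± 0.08), Mal and Cldn11 (-0.60 ± 0.11). Cnp encodes a phosphodiesterase of uncompacted myelin and Cldn11 the claudin of its tight junctions. The list medians were 0.09 and -0.18.

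Of the genes of cholesterol synthesis, all 21 were tested, and 10 were higher than in Oligo3 (among them Hmgcs1, Idi1, Fdps, Fdft1, Sqle, Cyp51, Msmo1 and Sc5d) and none lower, with a list median of 0.24, beside 1.59% of all genes higher. The count was 2 at a limit of 0.5, beside 36 of all 9240 genes. It was 19 with 0.1 in place of 1 added to the mean normalised count. That scale also called more of all genes higher, so the share of 1.59% does not apply to this count. Its background is the count of all genes higher than in Oligo3 on that scale, given below under the dependence on processing. Hmgcs1, an enzyme of the first steps of the pathway, averaged 2.23, 2.22, 2.80 and 2.41 in Oligo2 and 1.34, 1.43, 1.85 and 1.61 in Oligo3. The hippocampus of mouse 4 was highest in both clusters, the clusters did not overlap, and the difference was 0.86 ± 0.08. Idi1, an isomerase of the same pathway, averaged 1.11, 1.22, 1.49 and 1.36 against 0.60, 0.67, 0.87 and 0.73, and Sqle, which makes squalene epoxide, differed by 0.41 ± 0.12.

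Against Oligo4, 8 of the 21 were higher and none lower, with a median of 0.15, beside 3.18% of all genes higher. When the hippocampus library of mouse 4 was left out 4 were higher, beside 297 of all genes. Cortex libraries alone likewise gave 4, beside 305 of all genes. The cells of graph cluster 2 alone (1 of the 2 parts of Oligo2, chosen after seeing the data) gave 4 as well, beside 252. A limit of 0.5 gave 1, beside 87 of all 9384 genes, and 0.1 added gave 15, beside 1167 of all 9384 genes. Hmgcs1 averaged 1.91, 2.13, 2.11 and 2.18 in Oligo4. Its difference of 0.33 ± 0.25 thus varied widely and was largest in the hippocampus of mouse 4. Without that library the mean difference lay under the limit of 0.25. Idi1 differed from Oligo4 by 0.51 ± 0.10.

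**Figure D3:**
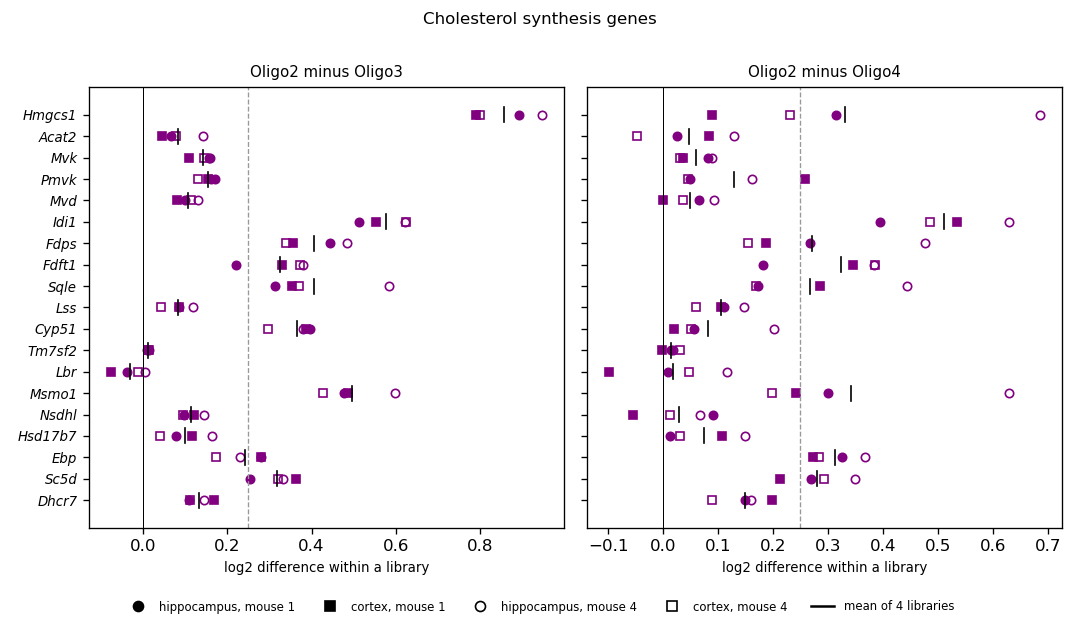
Log2 differences of 19 of the 21 cholesterol synthesis genes within each of 4 wild-type libraries (points) with their mean (tick), Oligo2 minus Oligo3 on the left and Oligo2 minus Oligo4 on the right, and a dashed line at the limit of 0.25. Against Oligo3, 8 of the genes plotted have a mean past the limit and every library above 0, and against Oligo4 the hippocampus of mouse 4 gives the highest value of most genes.

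The promoter of Hmgcs1 is shown because it alone, of the pathway promoters searched, held the word described next. This gene also had the largest difference of the pathway from Oligo3, while from Oligo4 it was Idi1 that differed most. Sterol regulatory element binding proteins, which switch on cholesterol synthesis, bind elements that contain TCACNCCAC, and this word was searched on both strands of RefSeq promoter windows of 300 bases (GRCm38.p6). It was found in 408 of 32851 windows (1.24%). Of the 21 genes, 16 had a window, and of those Hmgcs1 alone held the word, which starts at base 114 of chr13:119690101-119690400 on the plus strand and is given in capitals. The same word with an A in front of it was in 77 windows (0.234%) and in none of the list.
Hmgcs1: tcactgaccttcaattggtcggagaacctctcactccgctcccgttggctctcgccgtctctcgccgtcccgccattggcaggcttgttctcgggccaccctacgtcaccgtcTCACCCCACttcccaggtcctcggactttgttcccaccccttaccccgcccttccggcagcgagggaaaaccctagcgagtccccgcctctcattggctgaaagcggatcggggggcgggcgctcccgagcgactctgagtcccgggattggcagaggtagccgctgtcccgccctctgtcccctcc
A match is a description, not a site or a cause.

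Of 18 genes of fatty acid and galactolipid synthesis, 6 were higher than in Oligo3 and none lower (median 0.14), beside 1.59% of all genes higher. With the limit at 0.5 none was higher, beside 36 of all 9240 genes. With 0.1 in place of 1 added 10 were, on a scale that also called more of all genes higher. The background of that count is likewise the count of all genes higher on that scale, given below under the dependence on processing. The 6 included Ugt8a (0.43 ± 0.03), which makes galactosylceramide, Gal3st1 (0.38), which sulphates it, and Fa2h (0.30), which hydroxylates fatty acids. Against Oligo4, 5 were higher, among them Ugt8a (0.40 ± 0.07) and the elongase gene Elovl5 (0.56), and 4 were lower, namely Elovl6, Fads1 (-0.27), Cers2 and Degs1, with a median of 0.14. Higher than in Oligo4 were 1 gene at a limit of 0.5, beside 87 of all 9384 genes, and 9 with 0.1 added, beside 1167.

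Of 6 axon-glia contact genes tested, Nfasc, which encodes the paranodal adhesion molecule neurofascin, was lower than in Oligo3 (-0.37 ± 0.06) and Oligo4 (-0.75 ± 0.11), and Omg and Ermn were higher than in Oligo4. Of 6 gap junction and potassium channel genes tested, 2 were higher than in Oligo3, among them the connexin gene Gjb1 (0.50 ± 0.05), and 3 were higher than in Oligo4, among them Gjb1 and the potassium channel gene Kcnj10. Fth1, the heavy chain of ferritin, was higher than in Oligo3 (0.53 ± 0.04) and Oligo4 (0.85 ± 0.09), as 1 of 4 iron genes tested.

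Of 12 transcription factor genes tested against Oligo3, Olig1 (-0.29 ± 0.05) and Olig2 (-0.36 ± 0.04), which specify the lineage, were lower and none was higher. Zfp536 was lower in addition against Oligo4 (-0.39), among 13 tested. Sox10 (-0.07) and Myrf (-0.06), which drive myelin genes, stood close to Oligo3. Of immediate early and heat shock genes, which dissociation can induce, Jun (-0.28 ± 0.05) and Hsp90aa1 (-0.33 ± 0.08) were lower than in Oligo3 among 8 tested, and the same 2 were lower than in Oligo4 among 9.

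No interferon or antigen presentation gene was past the limit, with 3 of 11 tested. Of 82 ribosomal protein genes tested, none was past the limit against Oligo3 (median -0.01) and 6 were higher than in Oligo4 (median 0.11), beside 3.18% of all genes. Of the 13 genes of the mitochondrial genome, 8 were lower than in Oligo3 (median -0.29), beside 1.11% of all genes, and none was past the limit against Oligo4 (median -0.13). At a limit of 0.5 none was lower than in Oligo3, beside 23 of all 9240 genes. With graph cluster 6 alone, chosen after seeing the data, 4 were lower than in Oligo4, beside 294 of all 9444 genes. The lower mitochondrial share of Oligo2 cells moves with this list, and its part in the other differences was not tested.

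Oligo2 was made of 2 graph clusters of the authors' finer grouping, numbers 2 and 6. Cluster 6 held 116, 115, 70 and 73 cells, or 30.7, 36.6, 32.7 and 36.3% of Oligo2. Both cortex libraries lay above both hippocampus libraries, with 36.5% ± 0.216 against 31.7% ± 1.43 (SD, n = 2 each; p = 0.33 by an exact permutation test, two-sided, and no smaller p is possible). Of 9303 genes tested, 77 (0.828%) were higher in cluster 6 than in cluster 2 and 46 (0.494%) were lower. Of the 77, 73 were also higher in Oligo2 than in Oligo3, and of the 46, 43 were also lower, which is a description since the cells are shared. Against Oligo3, cluster 6 alone had 267 genes higher and 176 lower, and cluster 2 alone had 100 and 74. Median UMIs were 10972.5, 15059, 14926.5 and 13460 in cluster 6 and 9953.5, 12704, 13669.5 and 11391 in cluster 2, and the part of this depth in the counts was not tested.

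S100b had the largest difference between both parts of Oligo2 among the named genes higher in cluster 6. It averaged 2.20, 2.59, 1.53 and 2.62 in cluster 6 and 0.47, 0.50, 0.34 and 0.59 in cluster 2. Ptgds averaged 1.62, 1.39, 2.10 and 2.08 in cluster 6 and 3.77, 3.45, 4.87 and 4.68 in cluster 2. For both genes the library means of the parts did not overlap, and both were further from Oligo3 in cluster 6. Opalin, at 1.82, 1.50, 1.30 and 1.02 in cluster 6 and 3.18, 3.13, 2.76 and 2.45 in cluster 2, followed the same order.

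Klk6 averaged 0.62, 1.47, 0.47 and 1.10 in cluster 6, with both cortex values above both hippocampus values, and 0.10, 0.20, 0.08 and 0.11 in cluster 2. Hopx, an atypical homeodomain protein, averaged 0.78, 0.69, 0.69 and 0.80 in cluster 6 and 0.20, 0.18, 0.18 and 0.15 in cluster 2. Enpp6 was at 2.31, 2.41, 2.51 and 2.49 in cluster 6 and 1.66, 1.83, 1.76 and 1.91 in cluster 2. Serpinb1a hardly separated the parts, with a difference of 0.01 ± 0.04, although both exceeded Oligo3.

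**Figure D4:**
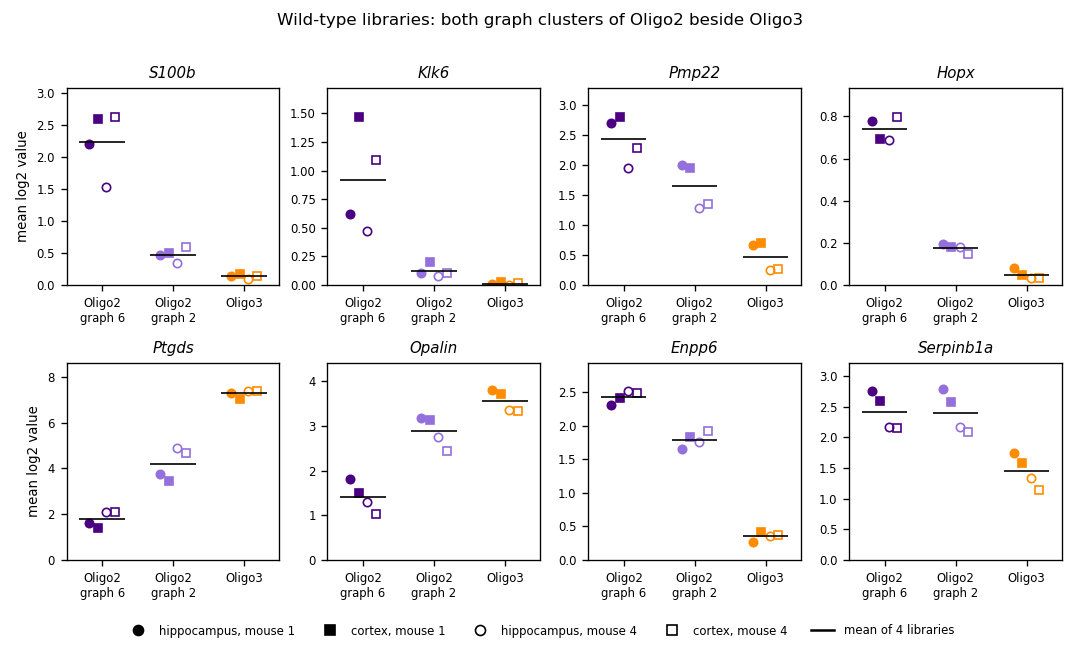
Mean log2 value of 8 genes in both graph clusters of Oligo2 (6 and 2) and in Oligo3, with 1 point for each of 4 wild-type libraries, a line at their mean and y axes from 0. S100b, Klk6, Pmp22 and Hopx are highest and Ptgds and Opalin lowest in cluster 6, with cluster 2 between it and Oligo3, while Serpinb1a is alike in both parts.

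Within libraries, single cells of Oligo2 were spread widely for Ptgds. The median cell was at 2.84, 2.46, 4.01 and 3.29, and the 90th percentile at 5.40, 4.81, 6.26 and 6.32. The latter lay below the 10th percentile of Oligo3 cells (5.89, 5.48, 6.40 and 6.35) in each library. For Enpp6, the 10th percentile of Oligo2 cells was 0.85, 1.23, 1.09 and 1.21, below the 90th percentile of Oligo3 cells (1.19, 1.45, 1.43 and 1.42) in each library, so single cells of the clusters overlapped. The median Oligo3 cell had no Enpp6 UMI.

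As a mean of the 4 library percentages, a UMI of Enpp6 was seen in 97.0% of Oligo2 cells, 29.2% of Oligo3 cells and 13.1% of Oligo4 cells, and, after thinning to 5000 UMIs, in 82.7, 17.9 and 5.44%. For Selenop the means over libraries were 89.3, 43.1 and 14.6%, and 84.2, 32.7 and 6.65% after thinning. Free RNA in droplets adds UMIs to cells that do not express a gene. The files used here hold oligodendrocytes alone, so no cell type that lacks these genes was at hand.

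Markers of other cell types are given as UMIs per 10000 in sum. All 10 microglial markers were detected and summed to 0.950, 0.667, 0.621 and 1.63. The 7 astrocyte markers summed to 2.08, 2.28, 2.49 and 2.80, led by the glutamate transporter gene Slc1a3, which was the only marker higher than in Oligo4 (0.42) and was seen in 67.8% of Oligo2 cells. Astrocyte sums were 2.50, 2.53, 2.45 and 2.94 in Oligo3 and 1.49, 1.56, 1.39 and 1.49 in Oligo4. The 4 progenitor markers summed to 0.211, 0.108, 0.160 and 0.130, led by Ptprz1. These sums were lower in every library than in Oligo3 (0.317, 0.196, 0.208 and 0.259) and Oligo4 (0.246, 0.381, 0.167 and 0.158). The 6 neuronal markers summed to 0.356, 0.0632, 0.110 and 0.0366, led by Meg3, and were lower in every library than in Oligo3 (0.698, 0.139, 0.253 and 0.140) but higher in 3 of 4 libraries than in Oligo4 (0.142, 0.0519, 0.0836 and 0.0829). Against Oligo3, none of the 9 microglial, 7 astrocyte and 1 progenitor markers detected widely enough to be tested was past the limit, and no neuronal marker could be tested.

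The 5 endothelial markers summed to 0.0526, 0.346, 0.194 and 0.497, led by Ly6c1. They were higher in every library than in Oligo3 (0.0476, 0.173, 0.0870 and 0.224) and Oligo4 (0.0328, 0.0173, 0.0557 and 0.0226). Of 4 mural markers, 3 were measured and summed to 0.268, 0.00702, 0.00668 and 0.0122, led by Vtn. The hippocampus of mouse 1 was highest for mural markers. As a mean of the libraries, no mural marker had a UMI in more than 0.453% of Oligo2 cells, so these sums rest on few cells. Of 3 ependymal and choroid plexus markers, Ttr alone was detected, at 0.0702, 0.138, 0.0835 and 0.0326, while Ccdc153 and Tmem212 had 0 UMIs. The 5 erythrocyte markers were uneven, at 27.1, 6.77, 0.314 and 0.147, led by Hbb-bs, against 7.05, 0.359, 0.322 and 3.13 in Oligo3 and 0.289, 0.260, 0.301 and 0.158 in Oligo4. In both libraries of mouse 1 the sum in Oligo2 was thus above those in Oligo3 and Oligo4. As a mean of the libraries, a UMI of Hbb-bs was seen in 18.8% of Oligo2, 18.2% of Oligo3 and 19.1% of Oligo4 cells. The share of cells with this transcript was therefore alike, unlike the sums. The part of these transcripts in the differences between clusters was not tested.

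Tissue was not used to choose the cells, so hippocampus and cortex were tested within Oligo2. No gene of 9267 passed (0.0%) an adjusted p of 0.05 in limma, with 171 genes at an unadjusted p under 0.05, and edgeR on recovered UMI sums gave 0 as well, with 127. With the mouse as a block the count was 0, with 579 genes at an unadjusted p under 0.05. Values of the tissues did not overlap for 2198 genes (23.7%). On the log2 scale with 0.1 added, Klk6 alone passed, lower in hippocampus (limma adjusted p = 0.0295; over all settings the smallest adjusted p ranged from 0.0295 to 1.00).

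The largest tissue differences without overlap are therefore descriptions. S100b averaged 0.86 in hippocampus and 1.30 in cortex, a difference of -0.43 (SE 0.10, limma adjusted p = 1.00), and Klk6 differed by -0.33. The mitochondrial gene mt-Nd3 averaged 2.75, 3.21, 3.10 and 3.82, so that the cortex was higher within each mouse, and mt-Cytb (-0.36) and mt-Co2 (-0.35) were among the 5 lowest in hippocampus as well. Other mitochondrial genes went the other way with overlap, such as mt-Nd4l (0.26) and mt-Atp8 (0.10). The median mitochondrial percent of Oligo2 cells was likewise higher in cortex in each mouse, 4.75 against 4.12 in mouse 1 and 5.73 against 4.23 in mouse 4. The batch of the latter cortex library was of poorer quality by the study's methods, and the part of quality in these differences was not tested. In the other direction, the genes without overlap had smaller differences, with the protease gene Htra1 and the acyl-CoA ligase gene Acsl3 both at 0.22 and Tspan2 at 0.20. Ptgds (0.32) and Opalin (0.29) were further apart and higher in hippocampus within both mice, but their tissues overlapped between mice. Graph cluster 6, in which S100b and Klk6 were higher and Ptgds and Opalin lower than in graph cluster 2, made up more of Oligo2 in cortex (36.5%) than in hippocampus (31.7%), and its part in these differences was not tested.

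Whether the distance of Oligo2 from the other clusters depends on tissue was tested on the differences within libraries. For Oligo2 minus Oligo3, limma called 0 of 9240 genes (0.0%; 468 at an unadjusted p under 0.05), and for Oligo2 minus Oligo4 it called 0 of 9384 (0.0%; 415 at an unadjusted p under 0.05). No other tool was run on these differences. In the fit with all 8 libraries, which had genotype but not the mouse as a term, 3 genes passed for Oligo2 minus Oligo3. All had a larger difference in hippocampus. They were Gm42372, Ube2d1 and Scd2, the first 2 named after their values were seen (smallest limma adjusted p 0.0333, range over settings 0.0333 to 1.00). With 2 libraries per tissue a p that misses the threshold does not show that the tissues are alike.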

How the data were processed

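Female mouse brain cells were sequenced in 8 droplet libraries. Reads were aligned and counted by the authors with Cell Ranger 5.0.0 (submitters' processing notes) on mm10. They filtered cells, kept oligodendrocyte clusters, clustered them after batch correction and removed doublets only as far as the sort and their filters did; doublets were not called again. The deposited expression values are log2 of the UMI count divided by a scran size factor, plus 1, not batch corrected. The deposited cell table gives UMI counts, mitochondrial percent, the size factor as a ratio to the mean cell, genes detected and cluster numbers; 20 of its columns were not used. All 42420937 values above 0 gave whole UMI counts within 0.001 once the size factor was multiplied back, and the lowest total of a cell was 5039 UMIs. The recovered UMIs summed to the deposited total in 11264 of 12581 cells, and the median share of that total was 100%.

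Values were averaged per library and cluster. Clusters were described, not tested. Tissue was tested with limma 3.58.1 and, on recovered UMI sums, edgeR 4.0.16 (quasi-likelihood, TMM) in R 4.3.3, with Benjamini-Hochberg adjustment, two-sided. Other steps used Python 3.11.15, numpy 2.4.6, scipy 1.17.1, pandas 2.3.3 and matplotlib 3.10.9. Scripts were tested on simulated data. Libraries of a mouse share the animal, so mouse numbers pair them; deviations of both tissues of a mouse from the tissue means correlated at 0.72 across 9267 genes, which are not independent. Alternatives were the scale, the filter on low genes, thinning, the limit, each tissue, each library left out, the mouse block, all 8 libraries, and, chosen after seeing the data, each graph cluster alone.

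Named genes were Mog, Mag and Mbp, the 15 highest and 15 lowest against either cluster with 1 sign in 4 libraries, up to 6 members of each list by size of difference, the most abundant gene of each marker list, and 5 genes each way for tissue; some of these genes are not reported here. The members and lists were chosen with earlier results of these data known. Symbols of kinases and binding proteins that share the ribosomal prefix were left out of the ribosomal list after its members were seen. Gene positions are from GENCODE for GRCm38.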

Additional observations from a re-analysis of the deposited data

Results flagged for a closer look

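Of 82 groups of 4 wild-type libraries looked at, 2 had 1 library far from the others, and chance gives about 1 in 20 groups. Ttyh1, a membrane protein gene of the tweety family, differed between Oligo2 and Oligo4 by -1.22, -1.06, -1.05 and -1.03, and the gap of the hippocampus of mouse 1 to the nearest library was 0.877 of the range. Mural markers in Oligo2 summed to 0.268, 0.00702, 0.00668 and 0.0122 UMIs per 10000, with the hippocampus of mouse 1 apart by 0.979 of the range. These sums rest on few cells, since Vtn, the most widely seen, had a UMI in 0.453% of Oligo2 cells as a mean of the libraries.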

How the results depend on the processing

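Under other settings, 102 values of the comparisons kept their size or call, 18 moved and 1 changed sign; of list counts, 98 kept their size and 14 moved. Of 1936 values of 176 named gene differences, 460 moved by more than 1 SD and none changed sign. Only called genes, with 1 sign in all 4 libraries, were counted here. Leaving out a library or taking 1 tissue therefore could not change their sign. For example, S100b, Oligo2 minus Oligo3, went from 0.94 to 1.54 on the log2 of the mean normalised count plus 1 and to 3.31 plus 0.1, and Klk6, Oligo2 minus Oligo3, from 0.39 to 0.80 and 2.83. Where 0.1 in place of 1 was added to the mean normalised count, Oligo2 minus Oligo3 in WT libraries: genes higher came to 641 and Oligo2 minus Oligo3 in WT libraries: genes lower to 580. Oligo2 minus Oligo4 in WT libraries: genes higher came to 1167 and Oligo2 minus Oligo4 in WT libraries: genes lower to 945. Oligo2 higher than both Oligo3 and Oligo4 in WT libraries: genes numbered 529, and Oligo2 lower than both Oligo3 and Oligo4 in WT libraries: genes numbered 413. That scale gives weak genes larger differences by construction. At a limit of 0.5 these counts were 36, 23, 87, 76, 34 and 19, by construction of the limit. With the cells of graph cluster 6 alone, chosen after seeing the data, 267 genes were higher and 176 lower than in Oligo3, and 239 and 139 than in both. Leaving out each library in turn gave 149 to 154 higher and 102 to 111 lower than Oligo3.

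Tissue called 1 gene (Klk6) with 0.1 added, and 3 genes for Oligo2 minus Oligo3 with all 8 libraries and no mouse term. The cause was not tested. The mouse as a replicate block, or pairing, gave 0 calls in each tissue test, 579, 542 and 471 genes being at an unadjusted p under 0.05, and changed no call. Oligo2 share of oligodendrocytes in WT libraries: hippocampus minus cortex, points, ran from -5.21 to 0.286 (the latter without the cortex of mouse 1) when 1 library was left out. In limma, a tissue left with 1 library was assumed to vary like the other. Oligo4 has few cells in the cortex of mouse 1, and weak genes are limited by depth.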

Other observations

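The FireΔ/Δ libraries, which did not enter the descriptions, were looked at with the same differences. Of the 147 genes higher in wild-type Oligo2 than in Oligo3, 147 were also above 0 in all 4 FireΔ/Δ libraries, and of the 103 lower, 103 were below 0. Against Oligo4 the counts were 297 of 298 and 241 of 241. The clusters were made from cells of both genotypes together, which favours the same direction by construction. The share of all tested genes above or below 0 in these libraries was not counted. The counts are therefore a description and not a replication.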
